A study of Mus musculus with 6 samples.

Results

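EphA receptors and ephrin-A ligands were measured in motor neurons of the mouse lumbar spinal cord. The 10 genes considered were 6 receptor genes (Epha3, Epha4, Epha5, Epha6, Epha7 and Epha8) and 4 ligand genes (Efna1, Efna2, Efna3 and Efna5). They are not the whole A class, since Epha1, Epha2, Epha10 and Efna4 are in a comparison list below. They were found by gene symbol, and 9 of the 10 had a row of their own among the 14860 genes with a single symbol. The expression of Efna3 was not analysed here. Each of the 9 had exactly 1 row, so no choice between rows of a gene was needed, and a row does not separate the isoforms of its gene. All 6 samples came from embryos at embryonic day 12 of the line mHB9-Gfp1b with genotype HB9::GFP, in which the promoter of the motor neuron gene Mnx1 drives green fluorescent protein. Lumbar cord columns were dissected, dissociated and sorted for fluorescence, which gave 3 medial and 3 lateral samples, called biological replicates in the labels, with 1 array each. The labels give neither the number of embryos per sample nor whether replicates came from separate litters, and the p-values below rest on the spread among 3 samples per group, which may be partly technical. The lateral samples are not split in the labels into the medial and lateral divisions of the limb column.

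Eph receptors are receptor tyrosine kinases that bind ephrins on neighbouring cells. Receptors of the A class bind mainly ephrin-A ligands, which are held in the membrane by a lipid anchor, and contact often makes a growth cone turn away. Ligands can also signal back into the cell that carries them, and a ligand on the same cell as its receptor can dampen the receptor. In limb-innervating motor neurons, EphA4 helps the axons of the lateral division choose the dorsal limb, while EphA3 and EphA4 on medial column axons keep them apart from ephrin-A-bearing sensory ganglia and axons.

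Of 15 motor neuron and column identity genes, 5 passed as higher in the medial samples (Mnx1, Isl2, Lhx3, Lhx4 and Mecom), 5 as lower (Isl1, Foxp1, Aldh1a2, Lhx1 and Etv4) and 5 did not pass, among them the cholinergic genes Chat, Slc18a3 and Slc5a7. Over all rows 1.13% passed as higher and 1.94% as lower. The identity and marker lists were chosen with earlier results of these data known, so their counts are not independent evidence. The 15 motor neuron and column identity genes all had a group mean above a background bound of 6.13 on the log2 scale, the 95th percentile of the mean levels of 802 olfactory and vomeronasal receptor rows, whose genes are not used by motor neurons. So did 9896 of all 14860 genes and 7 of 9 mesenchyme and cartilage genes, so a mean above the bound does not by itself show expression. Lhx3, which specifies the medial column, differed by 3.23 ± 0.09 (log2 difference, medial minus lateral, SE, adjusted p = 5.89e-05), and Foxp1, which defines the limb column, by -3.00 ± 0.11 (SE, adjusted p = 0.000161). Mnx1, whose promoter drives the sorted fluorescence, was itself 2.67-fold higher in the medial samples, and all 3 preganglionic markers (Nos1, Zeb2 and Smad9) were higher in the lateral samples. Among markers of other cell types, 2 passed the test, Slc17a6 of 10 interneuron genes and Sox2 of 9 progenitor and glial genes, both higher in the medial samples at means of 6.50 and 6.31 there. Their lateral means of 5.48 and 5.68 lay below the bound. The rest of these lists did not follow them, with median log2 differences of -0.08 and 0.02. Gad2 and Slc32a1 were lower in every medial than in any lateral sample and did not pass (adjusted p = 0.144 and 0.721). Of the 3 sensory, 9 mesenchyme, 7 muscle and 7 endothelial and blood genes 0 passed in limma, against 1.13% of all rows as higher and 1.94% as lower. The unadjusted p was under 0.05 in 2 of them, against 13.4% of all rows. With so few genes, 0 passing does not show that the groups are alike in these cell types. The mean log2 level of the interneuron list was 6.23 to 6.27 in the medial and 6.10 to 6.38 in the lateral samples, and that of the progenitor and glial list 7.24 to 7.37 and 7.10 to 7.29. The part of these markers in the results below was not tested, and in bulk samples fewer cells of a type and less RNA per cell cannot be told apart.

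Of the 9 measured genes, 2 receptor genes passed as higher in the medial samples, Epha3 and Epha5, and 2 genes passed as lower, the receptor gene Epha8 and the ligand gene Efna5. The other 5 did not pass (limma on the log2 values, Benjamini-Hochberg adjustment over all 23332 rows, threshold 0.05). Over all rows 1.13% passed as higher and 1.94% as lower. The 9 genes were chosen with earlier results of these data known, so their share is given without a reading. In 8 of the 9 the 2 groups of values were fully separate, medial higher in 6 and lower in 2. Over all rows, 10.2% were separate with medial higher and 9.15% with medial lower, 19.3% in all. The median log2 difference of the 9 was 0.27, against 0.02 over all rows.

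**Figure D1:**
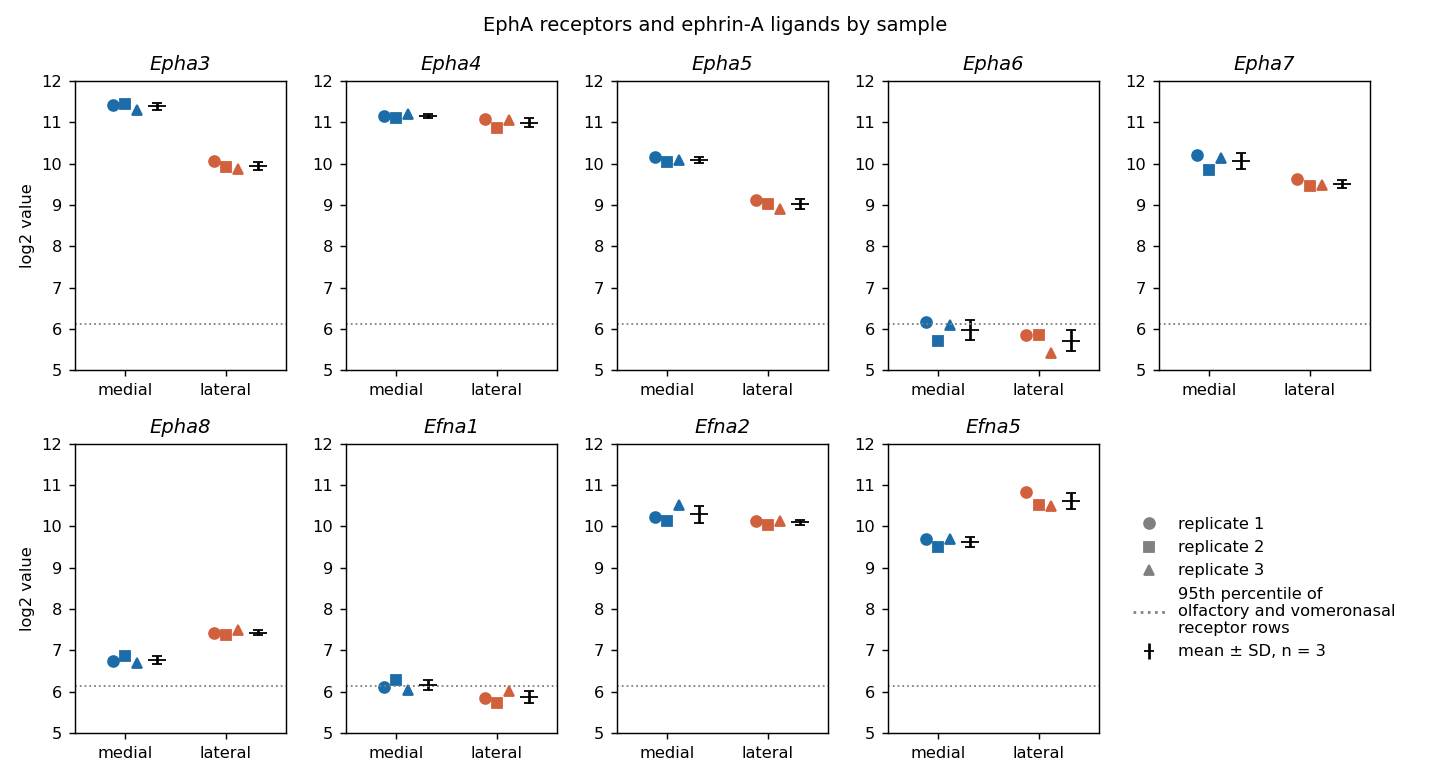
Deposited log2 value of each measured gene in the 3 medial and 3 lateral samples (points), with the mean and SD of each group beside them; the dotted line is the background bound of 6.13. The groups stand apart in Epha3, Epha5, Epha8 and Efna5, nearly touch in Epha4 and Efna2, and Epha6 and Efna1 lie along the bound.

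The promoter windows of the 4 genes that passed are shown because they are the genes the comparison turns on, in both directions. Each runs from 250 bases before to 50 after a RefSeq start in GRCm38.p6 and is written 5′ to 3′ on the gene's strand. The array files use mm9, so these positions were used only for the sequences. The windows lie at chr16:63864126-63864425 on the minus strand (Epha3), chr5:84417333-84417632 on the minus strand (Epha5), chr4:136956767-136957066 on the minus strand (Epha8) and chr17:62881268-62881567 on the minus strand (Efna5). Capitals mark matches to TAATTA, the core bound by LIM homeodomain proteins.
Epha3: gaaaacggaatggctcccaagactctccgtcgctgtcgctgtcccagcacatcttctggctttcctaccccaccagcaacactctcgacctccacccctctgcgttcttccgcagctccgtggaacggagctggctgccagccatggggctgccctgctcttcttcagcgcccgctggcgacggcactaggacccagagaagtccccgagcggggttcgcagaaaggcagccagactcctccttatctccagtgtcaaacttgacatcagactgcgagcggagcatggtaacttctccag
Epha5: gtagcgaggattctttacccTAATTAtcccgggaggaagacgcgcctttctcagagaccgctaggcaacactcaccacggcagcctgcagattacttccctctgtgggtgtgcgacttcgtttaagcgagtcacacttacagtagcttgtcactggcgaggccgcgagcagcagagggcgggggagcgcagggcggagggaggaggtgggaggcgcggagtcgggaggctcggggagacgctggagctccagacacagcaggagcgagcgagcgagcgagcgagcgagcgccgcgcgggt
Epha8: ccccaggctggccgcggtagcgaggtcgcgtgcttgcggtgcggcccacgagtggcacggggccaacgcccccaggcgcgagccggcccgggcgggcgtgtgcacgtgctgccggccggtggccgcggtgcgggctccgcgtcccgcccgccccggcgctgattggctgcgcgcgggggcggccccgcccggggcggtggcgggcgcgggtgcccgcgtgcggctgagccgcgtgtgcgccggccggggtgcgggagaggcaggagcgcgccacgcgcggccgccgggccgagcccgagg
Efna5: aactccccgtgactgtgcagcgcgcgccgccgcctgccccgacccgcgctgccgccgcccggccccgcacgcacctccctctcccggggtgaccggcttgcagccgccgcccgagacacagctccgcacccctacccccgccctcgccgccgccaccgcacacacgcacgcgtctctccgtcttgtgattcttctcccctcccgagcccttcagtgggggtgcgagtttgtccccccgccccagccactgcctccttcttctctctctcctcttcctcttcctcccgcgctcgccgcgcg
Both strands were searched for TAATTA, for the forkhead letters GTAAACA and for the E-box letters CAGCTG, which do not overlap one another in these windows. Of all 10 genes, in 13 windows, TAATTA was found in that of Epha5, at position -230 from the start, and in 1 of the windows of Efna1, at position -175. GTAAACA was in 0 of the 13, and CAGCTG was in that of Epha6, at position -164. Of 32851 mouse windows, 5.29% held TAATTA, 3.65% held GTAAACA and 16.3% held CAGCTG. The 13 windows held 15 (Epha6) to 56 (Epha8) CpG dinucleotides each, where all windows had a median of 7 and an upper quartile of 20. Those of Epha6, Epha4 and Epha3, with 15, 17 and 18, lay below that quartile, and that of Epha8 had more than 99.8% of all windows. A match or its absence describes only these letters.

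Epha3 had the largest difference of the 9 genes. Its log2 values were 11.42, 11.45 and 11.29 in medial replicates 1, 2 and 3 and 10.05, 9.93 and 9.86 in lateral replicates 1, 2 and 3. Every medial sample lay above every lateral sample, with 1.24 between the nearest values of the groups, while the SDs within groups were 0.09 and 0.10. The difference was 1.44 ± 0.09 (log2, medial minus lateral, SE, adjusted p = 0.00102), which is 2.72-fold with a 95% interval from 2.34 to 3.15. Of the 14860 genes, 124 differed by more in either direction. It stayed called when any of the 6 samples was dropped (adjusted p from 0.0045 to 0.00751).

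Epha5, a receptor best known from the mapping of retinal axons, differed in the same direction. Its transcript had log2 values of 10.17, 10.03 and 10.08 in medial replicates 1, 2 and 3 and 9.12, 9.04 and 8.90 in lateral replicates 1, 2 and 3. The groups were separated by 0.91 and each was tight, with SDs of 0.07 and 0.11. The difference was 1.08 ± 0.09 (log2, SE, adjusted p = 0.0023), or 2.11-fold with a 95% interval from 1.82 to 2.45. It was exceeded by 214 of the genes and held in all 6 fits that left out a sample, with an adjusted p of at most 0.0195. The log2 difference of Epha3 exceeded that of Epha5 by 0.37 ± 0.07 (SE over arrays). Two-sided exact permutation of this per-array gap gave p = 0.1, the smallest that 20 splits of 6 arrays allow.

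Epha7, a receptor that also has forms without a kinase, fell short of the threshold. The log2 values of Epha7 were 10.20, 9.84 and 10.14 in the medial samples and 9.63, 9.45 and 9.47 in the lateral samples, in replicate order. The groups did not overlap, but medial replicate 2 stood below the other medial samples and only 0.21 above the highest lateral sample. The difference was 0.54 ± 0.12 (log2, SE, 95% interval 0.26 to 0.83), with an adjusted p of 0.0798. The call depended on the setting, since Epha7 passed in 6 of 10 other fits to the full 6 samples, quantile normalization and median centring among them, with adjusted p-values between 0.0229 and 0.0842. It also passed without medial replicate 2 (adjusted p = 0.04996, with a range up to 0.266 over the fits that left out a sample).

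Epha4, the receptor of the lateral division and of medial column axons, gave similar values in both groups. In replicate order, Epha4 had log2 values of 11.15, 11.09 and 11.19 in the medial and 11.07, 10.87 and 11.05 in the lateral samples. The lowest medial value exceeded the highest lateral value by 0.02, less than the SD of either group (0.05 and 0.11). The difference was 0.15 ± 0.09 (log2, SE, adjusted p = 0.551), and its 95% interval ran from a ratio of 0.96 to 1.28 for medial over lateral, so a difference as large as that of Epha3 lies outside it. Lhx1, the LIM homeodomain gene that marks the lateral division and is known to raise Epha4 there, differed by -2.58 ± 0.20 in the same fit (log2, medial minus lateral, SE, adjusted p = 0.00189). The log2 difference of Epha3 exceeded that of Epha4 by 1.29 ± 0.11 and that of Epha5 did so by 0.93 ± 0.10 (SE over arrays, exact permutation p = 0.1 for each, the smallest possible). These were 2 of 4 such gaps between genes, all chosen after the values were seen, and their p-values were not adjusted for that choice. All Epha4 values lay between 10.87 and 11.19, a narrower span than the group separations of 1.24 in Epha3 and 0.91 in Epha5. The 2 p-values of 0.1 against Epha4 therefore could not have been larger and add no evidence.

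Epha8 was the receptor gene that passed in the opposite direction. Log2 values of Epha8 were 6.73, 6.87 and 6.69 in the medial and 7.41, 7.38 and 7.49 in the lateral samples, in replicate order. The groups were separated by 0.51, with SDs of 0.09 and 0.05. The difference was -0.66 ± 0.08 (log2, medial minus lateral, SE, adjusted p = 0.0108), or 1.58-fold higher in the lateral samples. Its level was low, 0.64 above the background bound in the mean of the medial samples, and 6 of the 802 olfactory and vomeronasal receptor rows had a higher mean, so the fold can understate the difference. The call ended without medial replicate 1 or medial replicate 3 (adjusted p = 0.057 and 0.0589) and with the replicate number as a block (adjusted p = 0.0576), and held in the other 4 fits that left out a sample. Over all 6 fits that left out a sample, the difference stayed between -0.71 and -0.62.

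Epha6 could not be separated from background. Its log2 values were 6.16, 5.71 and 6.09 in the medial and 5.86, 5.86 and 5.42 in the lateral samples, in replicate order. The groups overlapped, both means lay below the bound of 6.13, and 62 of the 802 olfactory and vomeronasal receptor rows had a higher mean. The log2 difference was 0.27 ± 0.17 (SE, adjusted p = 0.602), with a 95% interval from -0.14 to 0.69, so no difference in Epha6 was resolved.

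Among the ligands, Efna5, the ephrin that repels retinal and other axons, differed in the direction opposite to Epha3 and Epha5. Log2 values of Efna5 were 9.68, 9.49 and 9.71 in the medial and 10.84, 10.52 and 10.49 in the lateral samples, in replicate order. Every lateral sample was above every medial sample, by at least 0.79, and lateral replicate 1 was the highest. The difference was -0.99 ± 0.12 (log2, medial minus lateral, SE, adjusted p = 0.0104), or 1.99-fold higher in the lateral samples. It was exceeded by 244 of the genes, and the call held in all 6 fits that left out a sample, with an adjusted p of up to 0.0468. Within each array the Epha3 value was set against that of Efna5, and this gap was higher in the medial samples by 2.43 ± 0.12 on the log2 scale (SE over arrays, exact permutation p = 0.1, the smallest possible). Both genes were already fully separate in opposite directions, so this p could not have been larger and adds no evidence.

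Efna2 and Efna1 did not pass. Efna2 had log2 values of 10.24, 10.13 and 10.53 in the medial and 10.13, 10.04 and 10.12 in the lateral samples, in replicate order. Medial replicate 3 was the highest, and the lowest medial value was level with the highest lateral value to 2 decimals. The difference of Efna2 was 0.20 ± 0.12 (log2, SE, adjusted p = 0.549, 95% interval -0.08 to 0.48). Efna1, the ephrin known from endothelial and epithelial cells, had log2 values of 6.12, 6.29 and 6.05 in the medial and 5.85, 5.73 and 6.02 in the lateral samples. The lateral mean of 5.87 lay below the background bound and the medial mean of 6.15 just above it. Its difference of 0.28 ± 0.11 (log2, SE) had an adjusted p of 0.329. Efna1, Efna3 and Efna4 follow each other without another protein-coding gene between them in the RefSeq order, and Efna4 also did not pass, at 0.19 ± 0.09 (log2 difference, SE, adjusted p = 0.411).

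The other Eph receptors and ephrins were counted for comparison. They include the A-class genes Epha1, Epha2, Epha10 and Efna4, so the 2 lists do not set the A class against the B class. Of 12 further genes, 10 had a row with a single symbol, and 0 of them passed in limma, against 1.13% of all rows as higher and 1.94% as lower. The groups did not overlap in 5 of the 10, against 19.3% of all rows, and the unadjusted p was under 0.05 in 3, against 13.4% of all rows. Ephb1, a receptor of the B class, had the smallest p, with log2 values of 8.43, 8.08 and 8.31 in the medial and 7.58, 7.64 and 7.01 in the lateral samples. Its difference of 0.86 ± 0.19 (log2, SE, adjusted p = 0.0812) was larger than that of Epha8, but its lateral values were spread over 0.62. In the 10 other fits to the full 6 samples Ephb1 passed 4 times, and its adjusted p lay between 0.0207 and 0.135. Epha10, a receptor thought to lack kinase activity, and the ligand gene Efnb1 were at -0.49 ± 0.12 and -0.34 ± 0.11 (log2 difference, SE) with adjusted p-values of 0.13 and 0.212.

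**Figure D2:**
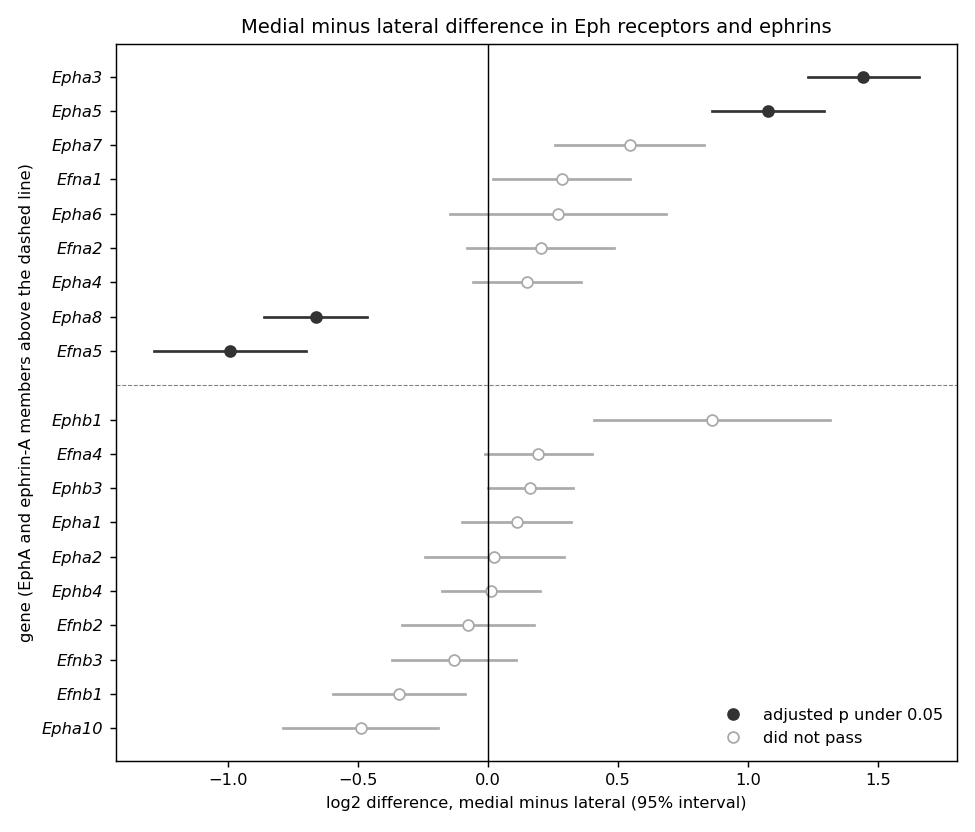
Log2 difference between medial and lateral samples with its 95% interval. The 9 chosen EphA and ephrin-A genes lie above the dashed line and 10 other Eph receptors and ephrins below it. The lower genes include Epha1, Epha2, Epha10 and Efna4, also of the A class. Filled points passed an adjusted p of 0.05, to the right for Epha3 and Epha5 and to the left for Epha8 and Efna5, and 0 of the lower 10 are filled.

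Of 28 forward signalling effectors 24 had a row, and 1 passed as higher and 0 as lower in the medial samples, with a median log2 difference of 0.04. The shares over all rows were 1.13% and 1.94%. The gene that passed was Vav3, which encodes an exchange factor of the Vav family that is recruited by Eph receptors and aids the uptake of receptor and ligand. Its log2 values were 8.77, 8.39 and 8.63 in the medial and 7.38, 7.44 and 6.90 in the lateral samples, a difference of 1.35 ± 0.17 (log2, SE, adjusted p = 0.0118) or 2.56-fold. Lateral replicate 3 was the lowest, and the groups were far apart. The call of Vav3 ended without medial replicate 3 (adjusted p = 0.0625) and held in the other 5 such fits. Its relative Vav2 and Ngef, which encodes the exchange factor ephexin that links EphA4 to RhoA, were at 0.25 ± 0.08 and -0.25 ± 0.10 (log2 difference, SE) and did not pass (adjusted p = 0.257 and 0.336). Chn1, which encodes the chimaerin that acts below EphA4, and the kinase gene Fyn, both named after their values were seen, were at 0.19 ± 0.09 and -0.10 ± 0.09 with adjusted p-values of 0.447 and 0.716.

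Of 10 genes for ephrin-A reverse signalling and for the turnover of Eph and ephrin proteins, 8 had a row, 0 passed as higher and 2 as lower in the medial samples, and the median log2 difference was -0.07. Of all rows 1.13% passed as higher and 1.94% as lower. This list was chosen with earlier results of these data known, so its share is given without a reading. Both that passed belong to the GDNF receptor, which works together with ephrin-A reverse signalling in limb motor axons. Ret, its kinase subunit, had log2 values of 10.83, 10.63 and 10.76 in the medial and 12.05, 11.91 and 11.97 in the lateral samples. The difference was -1.24 ± 0.09 (log2, medial minus lateral, SE, adjusted p = 0.00126), so Ret and Efna5 were both higher in the lateral samples. Gfra1, the ligand-binding subunit, differed by -0.72 ± 0.12 (log2, SE, adjusted p = 0.0272). The call of Gfra1 held only without medial replicate 1 among the 6 fits that left out a sample, with an adjusted p of up to 0.119. Ntrk2, the receptor for brain-derived neurotrophic factor, was at 0.30 ± 0.09 (log2 difference, SE, adjusted p = 0.198). The protease gene Adam10, whose product sheds ephrin-A ligands, and the p75 receptor gene Ngfr, a partner of ephrin-A proteins in retinal axons, were named after their values were seen. They were at -0.12 ± 0.08 and -0.01 ± 0.08 and did not pass (adjusted p = 0.6 and 0.98).

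**Figure D3:**
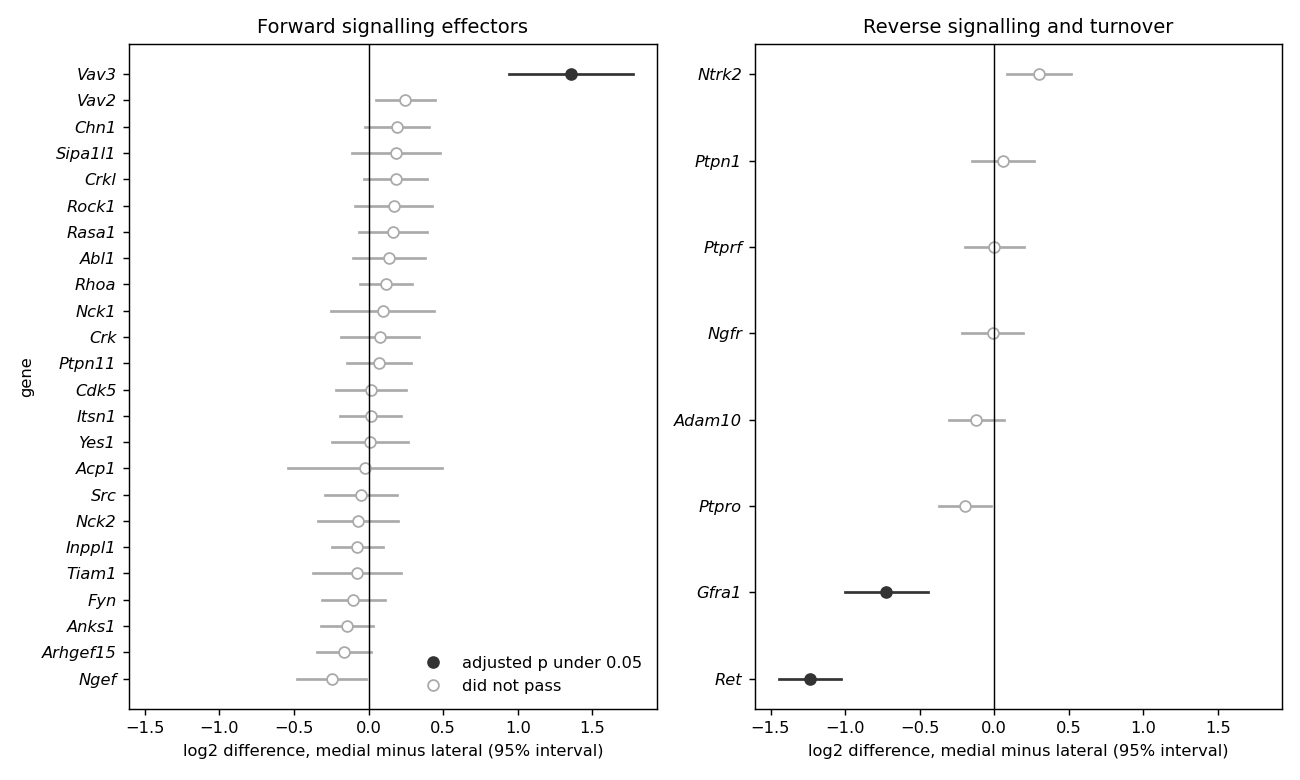
Log2 difference between medial and lateral samples with its 95% interval for 24 forward signalling effectors (left) and 8 genes of reverse signalling and turnover (right). The filled points are Vav3 on the right of 0 and Ret and Gfra1 on the left of 0.

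For each of the 4 genes that passed, the nearest profiles among the 14860 genes were found by the root mean square difference between the 6 log2 values, each gene centred on its own mean. For Epha3 they were Crtac1, Rgs7bp and Ldb2, at 0.083, 0.0863 and 0.0948. For Epha5 they were Gstm7, Dach1 and Gpr22, at 0.0533, 0.0556 and 0.063. For Epha8 the second nearest was the homeobox gene Isl1 at 0.0503, between Serpinf1 at 0.0496 and Nrp1, a semaphorin receptor, at 0.071. Efna5 lay closest to Galnt17, Nkain2 and the netrin receptor gene Unc5a, at 0.0455, 0.0511 and 0.0602. These likenesses describe 6 arrays in 2 groups.

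**Figure D4:**
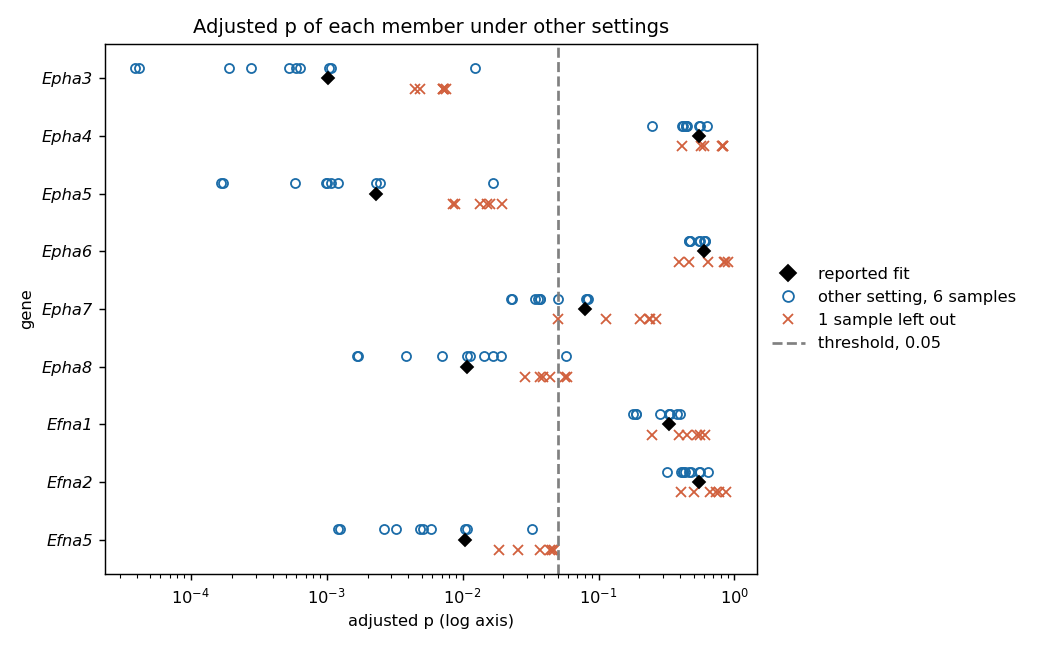
Adjusted p of each gene (log axis) in the reported fit (diamonds), in the other settings that kept all 6 samples and the threshold (circles), and with 1 sample left out (crosses); the dashed line is 0.05. Epha3, Epha5 and Efna5 lie left of the line throughout, Epha7 and Epha8 fall on both sides, and Epha4, Epha6, Efna1 and Efna2 lie right of it throughout.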

How the data were processed

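Per the labels' protocols, total RNA of the sorted cells was biotinylated with a whole-transcript labelling kit and hybridised. The authors deposited 1 table of processed values, taken here to be log2 because they range from 2.49 to 14.1. The aligner, summarization, background correction and normalization are not given in the sources used here, so centring between arrays stays unknown. The array medians lay between 6.73 and 6.84. Per the submitters' processing notes, the genome build was mm9. The table holds no detection calls. Precision is limited by having 3 arrays per group. Any 2 arrays shared at most 7 identical values.

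Of 23332 rows, 14996 had 1 gene symbol in the platform's probe table, 1019 several and 7317 were not listed. RefSeq (GRCm38.p6) supplied current symbols for 14941. Where a gene had several rows, that with the highest mean stood for it. Medial was compared with lateral on the deposited log2 values with limma 3.58.1 under R 4.3.3, by a two-sided moderated test from lmFit and eBayes with no block. P-values were adjusted by Benjamini-Hochberg over the whole table and called under 0.05. The code was tried on simulated data with independent noise in every row and array, which does not cover pairing or shared array effects. PowerExpress, named in the series design, was not run. Errors of differences are SEs of this fit, and those of group means SDs over 3 samples.

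The genes and lists were chosen with earlier results of these data known. All 10 genes were to be described, with the members of each other list that passed, filled to 3 by the smallest p, and the 3 nearest profiles of each gene that passed. From the identity and marker lists only a part of the genes that passed are named. Promoter windows, found for all 10 genes, are RefSeq's.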

Additional observations from a re-analysis of the deposited data

How the results depend on the processing

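The 9 genes were refitted under 18 alternatives, which gave 160 values, since Epha6 and Efna1 fell out when rows below the background bound were left out. Of these 160, 0 changed direction, 148 kept their side of the threshold, 5 lost a call (Epha8 and Efna5) and 7 gained one (all Epha7). Of 162 values for 9 named genes of the other lists, 0 changed direction, 8 lost and 6 gained a call. With the replicate number as a block, 294 rows were lower in the medial samples in place of 453, and 1 of the 9 genes was called lower in place of 2. Whether equal numbers mark paired samples is not known. The sample descriptions also share a number between a medial and a lateral sample of the same replicate number, and the labels do not say what it marks. Deviations of same-numbered samples from their group means correlated at 0.35, 0.07 and 0.02. Those of samples with different numbers correlated between -0.37 and 0.30. With a weak correlation in 2 of 3 same-numbered pairs, the block was not used in the reported fit. At a threshold of 0.01, 116 rows were higher and 161 lower, and 0 of the 9 genes were called lower (Epha3 and Epha5 passed), 0 forward effectors and 1 reverse signalling gene. Of the other Eph receptors and ephrins, 1 passed with rows below the bound left out and 1 with quantile normalization, and 2 passed with single-symbol rows and 2 with 1 row per gene. All of these but quantile normalization test fewer rows. With 1 sample left out, 126 to 224 rows were higher and 200 to 348 lower. Of the 9 genes, 2 to 3 were then called higher and 1 to 2 lower, with 0 to 1 forward effectors, 1 to 2 reverse signalling genes and 0 other Eph genes in each fit. With 1 sample left out, the remaining pair is assumed to vary like the other group. The cause of these changes was not tested. Quantile normalization and median centring moved the median difference over all rows by -0.01 and 0.01, with 354 and 346 rows higher and 679 and 528 lower, in place of 264 and 453. With only single-symbol rows 395 were higher and 537 lower, and with 1 row per gene 390 and 527. Signal near the background bound limits Epha6, Efna1 and Epha8.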
